A study of Rattus norvegicus with 6 samples.

Results

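The genes studied here carry out fatty acid oxidation, the breakdown of fatty acids to acetyl-CoA in mitochondria and peroxisomes. They are 38 genes named by their function, from uptake of fatty acids to the last thiolase step. The list was chosen with earlier results of these data known. Each gene was represented by its brightest probe set, chosen by the mean log2 signal over all 6 arrays among probe sets annotated to that symbol alone. Levels are therefore given as a description, while the change between the groups had no part in the choice of probe set. A probe set of this kind was found for 37 of the 38 genes, and 34 of them passed a filter on low signals, among 10143 genes tested of 14217 with a named probe set. Acaa1a, a peroxisomal thiolase gene, had no probe set of its own symbol alone and has no value here. Cd36, Acsl4 and Acox3 lay below the filter. Near the filter, set at a mean signal of 11.2, Ehhadh lay inside at 12.1 and Acox3 outside at 3.88.

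The cells were GH4C1, a clonal rat pituitary tumour line of the somatolactotrope type, which secretes growth hormone and prolactin. All cultures were exposed to lentivirus for 16 h at a multiplicity of infection of 5 and grown for 4 days more. In 3 of them a PGK promoter drove POU1F1(R271W), which carries a point substitution in a transcription factor of pituitary development and is called dominant negative in the series title, joined through an IRES to EGFP. The other 3 were controls, for which the design text names a PGK-EGFP vector. The labels call the replicates biological without saying what separated them, so p-values measure the spread between these arrays. RNA of each culture went to 1 Affymetrix rat array, and the deposited values are MAS5 signals, a linear measure of brightness per probe set. In bulk RNA a change in the share of cells that carry a transcript and a change in its amount per cell cannot be told apart.

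In fatty acid oxidation, long chains are taken up, joined to coenzyme A by acyl-CoA synthetases, and moved across the inner mitochondrial membrane as carnitine esters. The mitochondrial cycle then removes acetyl-CoA through a dehydrogenase, a hydratase, a second dehydrogenase and a thiolase, with enzymes of different chain length preference and an electron transfer flavoprotein as acceptor. Peroxisomes shorten very long and branched chains and pass the products on as carnitine esters. In endocrine cells the route supplies energy beside glucose, and its acyl-CoA intermediates also feed lipid signals.

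The array as a whole sets the scale against which these genes are read. Median signals were 22.4 to 22.9 on the control arrays and 25.5 to 26.9 on the R271W arrays, without overlap. Precision is limited by having 3 arrays in each group. Spiked-in hybridisation controls were brighter by 0.23 log2 units with R271W. The 3'/5' ratio for beta-actin, a measure of RNA quality, averaged 1.96 with R271W and 1.82 in controls, again without overlap in either measure, while that for GAPDH averaged 0.981 and 0.993 and overlapped. The part of these array measures in the gene changes was not tested. All 5 markers of the GH4C1 cells passed the filter, with summed signals of 15720 to 16550 in controls and 14560 to 16370 with R271W. Prl, the prolactin gene, had signals of 4147, 4522 and 4327 in controls and 3006, 3171 and 3347 in R271W cells, and fell by 0.45 on the log2 scale (limma adjusted p = 0.00048). Pou1f1 also fell, by 0.33 (0.00486), while Chgb, the granule protein chromogranin B, rose from a mean of 2779 to 3815 (log2 0.46, 0.000337). Gh1, the growth hormone gene, and Pitx1, a pituitary homeobox gene, read -0.03 and 0.07 and overlapped between the groups. The summed signal of 4 fibroblast markers ran from 2708 to 2884 in controls and from 1180 to 1260 in R271W cells. Nearly all of it came from Dcn, the proteoglycan decorin, since Col1a1, Col1a2 and Pdgfra lay below the filter. The 3 blood and endothelial markers with a probe set also lay below it, as did 5 of 8 markers of other pituitary cell types and 5 of 6 markers of liver, heart and fat cells. The liver, heart and fat marker above the filter was Tnnt2, cardiac troponin T, at 30.02, 13.36 and 32.01 in controls and 45.82, 46.05 and 56.25 with R271W, without overlap (log2 1.07, adjusted p = 0.0515). The summed signal of that list ran from 40.3 to 86.4 in controls and from 60.1 to 104.9 with R271W. The part of such cells in the results was not tested.

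Promoter sequences are shown for 4 members because the results turn on them: Acadm rose furthest, Eci2 was the gene that rose in the group listed as peroxisomal, and Hadha and Hadhb encode the subunits of 1 enzyme. The windows come from RefSeq on the GRCr8 assembly and run from 250 bases before to 50 bases after the start site. In Eci2 the capitals mark a match, on the opposite strand, to AGGTCA, the hexamer that many nuclear receptors bind. In Hadha and Hadhb the capitals mark the 200 bases that both windows share.
Acadm (chr2:245542815-245543114, minus strand): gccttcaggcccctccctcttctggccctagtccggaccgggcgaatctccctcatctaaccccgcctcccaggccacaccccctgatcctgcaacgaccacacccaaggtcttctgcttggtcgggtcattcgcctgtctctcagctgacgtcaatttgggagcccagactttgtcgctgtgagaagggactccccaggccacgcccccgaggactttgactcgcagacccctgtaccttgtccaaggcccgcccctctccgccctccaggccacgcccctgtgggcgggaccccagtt
Eci2 (chr17:30075516-30075815, plus strand): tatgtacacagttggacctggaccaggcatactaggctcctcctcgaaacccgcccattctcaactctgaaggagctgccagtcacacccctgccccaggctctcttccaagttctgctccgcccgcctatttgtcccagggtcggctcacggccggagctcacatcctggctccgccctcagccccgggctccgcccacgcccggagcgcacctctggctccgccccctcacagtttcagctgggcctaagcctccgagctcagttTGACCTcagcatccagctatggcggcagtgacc
Hadha (chr6:31907551-31907850, plus strand): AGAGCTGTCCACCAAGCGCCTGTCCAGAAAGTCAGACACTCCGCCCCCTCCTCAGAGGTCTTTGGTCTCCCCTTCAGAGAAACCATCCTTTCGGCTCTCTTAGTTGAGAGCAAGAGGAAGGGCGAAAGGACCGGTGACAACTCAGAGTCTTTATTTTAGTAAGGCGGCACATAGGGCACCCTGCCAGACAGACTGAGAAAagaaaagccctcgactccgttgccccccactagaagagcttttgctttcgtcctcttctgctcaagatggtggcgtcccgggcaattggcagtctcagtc
Hadhb (chr6:31907451-31907750, minus strand): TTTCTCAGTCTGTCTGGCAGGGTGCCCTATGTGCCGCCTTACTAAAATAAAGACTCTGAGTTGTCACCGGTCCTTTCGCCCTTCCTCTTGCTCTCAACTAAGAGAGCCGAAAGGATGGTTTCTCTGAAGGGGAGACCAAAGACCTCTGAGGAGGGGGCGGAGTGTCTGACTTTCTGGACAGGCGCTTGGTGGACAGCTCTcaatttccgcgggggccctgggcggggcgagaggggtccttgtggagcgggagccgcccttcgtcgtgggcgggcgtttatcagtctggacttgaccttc

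Hadha and Hadhb lie head to head, with start sites 301 bases apart, so the capitals of 1 are the reverse complement of the capitals of the other. The Acadm window is 65.0% G and C, against a median of 51.7% over all windows, and holds no AGGTCA on either strand. Hadhb holds it near the end of its window, outside the shared bases. Windows were found for 33 of the 38 members. Read on both strands, AGGTCA occurred in 7 of these 33 (21.2%), against 16.2% of all 33469 windows in the table. The 7 were Acadvl, Echs1, Eci1, Eci2, Hadhb, Hsd17b4 and Slc27a1, of which 3 belong to genes that rose and 1 to a gene that fell. Among all 33 windows 11 belong to genes that rose and 3 to genes that fell. The extended form TCAAGGTCA, which contains the hexamer, the E-box CACGTG and ATGNATA, a core of POU1F1-type sites, occurred in 0 of the 33, against 0.433%, 6.42% and 9.88% of all windows. A match or its absence describes only these letters in this window.

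Across the pathway, 12 of the 34 tested genes rose in R271W cells and 3 fell (limma, adjusted p under 0.05 over all probe sets tested). The share that rose was 35.3%, against 9.87% of all 10143 tested genes, and the share that fell was 8.82%, against 8.98%. The share that fell was thus near the background. The median log2 change of the 34 genes was 0.28, against 0.06 over all genes. The arrays of the groups did not overlap in 16 genes with R271W higher and in 3 with R271W lower, while 21.2% and 16.6% of all genes were separated in these directions. The members were chosen with earlier results of these data known, so these shares only describe the list. No test was made on the list as a whole.

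How the arrays were scaled changed this balance. Centring each array on its median moved the log2 changes down by about the offset between the groups, and then 7 members rose and 5 fell, against 4.35% and 20.4% of all genes. The share of called members that were higher was 80.0% with the deposited scaling and 58.3% with median centring, and over all genes it was 52.4% and 17.6%. Under 75th percentile centring it was 76.9% for the members and 34.6% over all genes. In that scaling 10 members rose and 3 fell, against 6.81% and 12.9% of all genes. Without the intensity trend in the variance model, 7 members rose and 1 fell, against 3.57% and 2.81% of all genes. The 7 calls kept under all 20 alternatives were the rises of Acadm, Acads, Crot, Acot2, Slc27a1 and Eci2 and the fall of Acsl5.

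**Figure D1:**
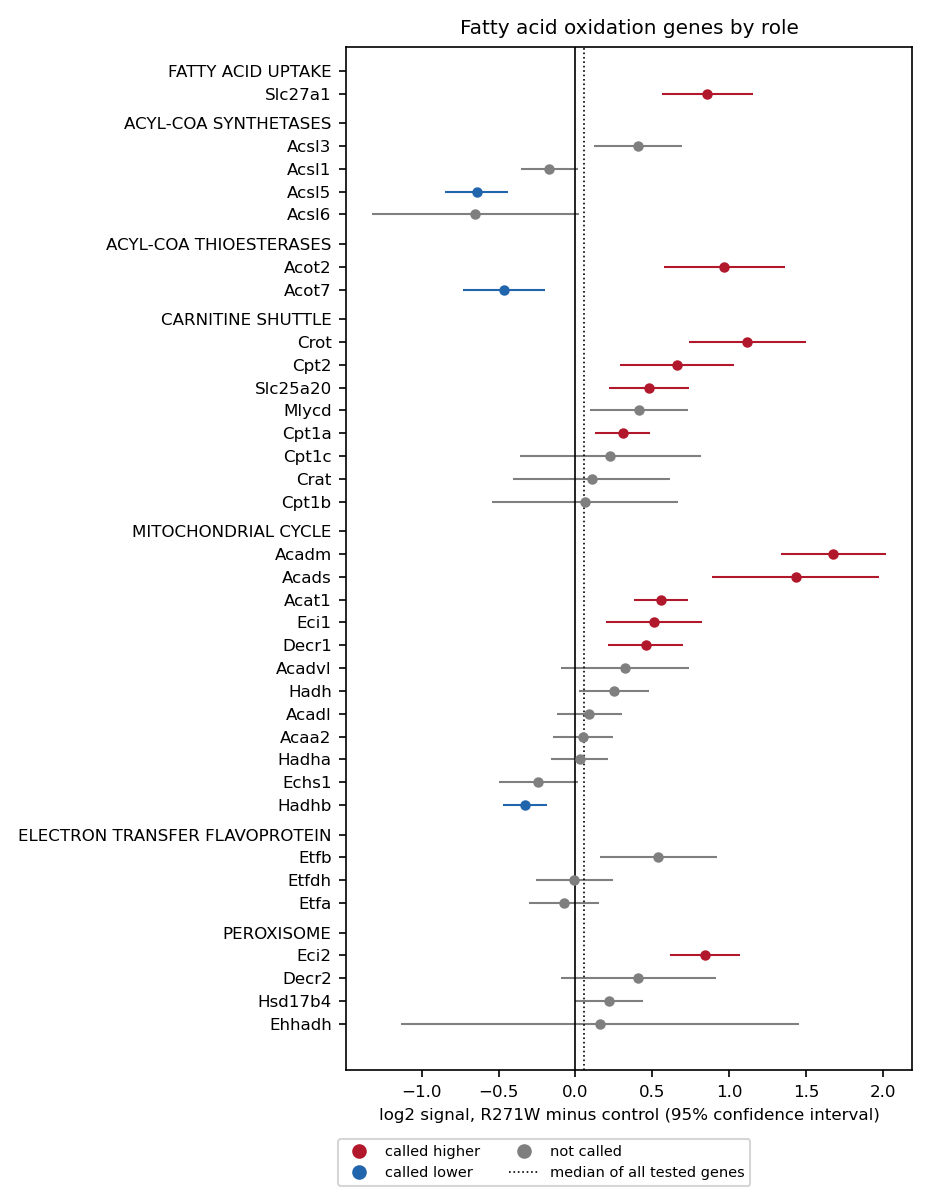
Log2 signal in R271W minus control cells (x axis) for the 34 tested genes, grouped by role, with 95% confidence intervals from limma (n = 3 arrays per group). Red points rose, blue points fell and grey points did not pass the test. Acadm has the largest rise at 1.68, and the dotted line marks the median of all tested genes at 0.06.

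The first step of the mitochondrial cycle held the largest changes. Acadm (probe set 1367702_at), the medium-chain acyl-CoA dehydrogenase, read 69.3, 85.6 and 69.1 in controls and 277, 254 and 191 in R271W cells. Its lowest R271W array lay above its highest control array by more than the range within either group. The fold was 3.20, or 1.68 on the log2 scale (SE 0.16, limma adjusted p = 1.82e-05). Acads (1367828_at), the short-chain enzyme, read 42.6, 26.0 and 53.4 in controls and 92.2, 99.7 and 126 in R271W cells. These signals are dim and the controls spread widely, but the groups did not overlap. The log2 change was 1.43 (SE 0.25, adjusted p = 0.00179).

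The dehydrogenases for longer chains did not pass the test. Acadl, the long-chain enzyme, read 344, 287 and 294 in controls and 332, 324 and 327 in R271W cells, so the R271W arrays lay within the control range. Its log2 change was 0.09 with an interval of -0.12 to 0.30 (adjusted p = 0.592). Acadvl, the very-long-chain enzyme of the inner membrane, had a log2 change of 0.32, an interval of -0.09 to 0.74 and an adjusted p of 0.293. Within each array, the ratio of Acadm to Acadl signal was 0.201, 0.298 and 0.235 in controls and 0.834, 0.784 and 0.585 in R271W cells. This ratio is the same under any scaling that multiplies a whole array by a factor, and its size has no meaning beyond the comparison of arrays. The pair was picked after its values were seen, and the difference between the dehydrogenases was not tested.

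**Figure D2:**
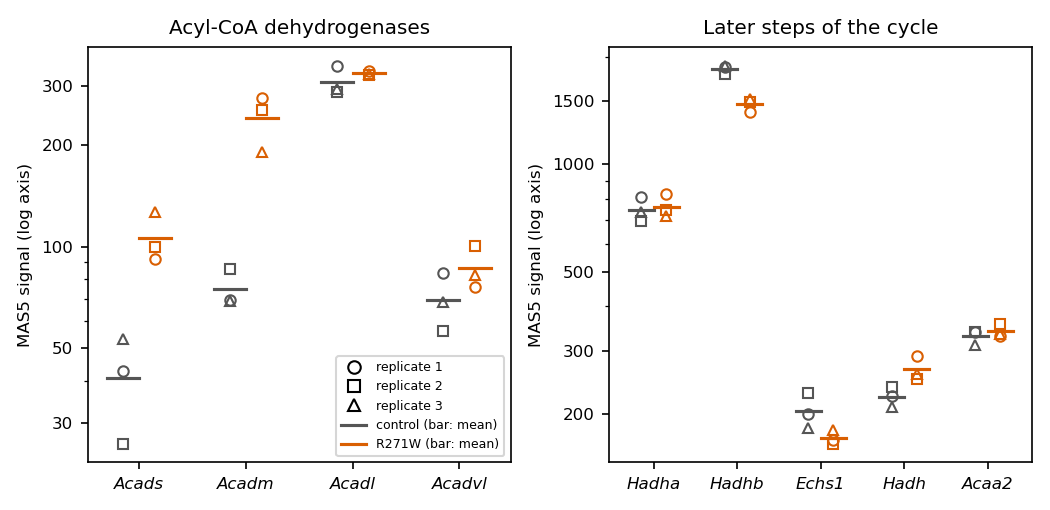
MAS5 signal on a log axis for each array, with acyl-CoA dehydrogenases on the left and enzymes of later steps on the right. Markers are replicates and bars are group means. Acads and Acadm are separated between the groups, Hadhb is lower on all 3 R271W arrays, and Hadha and Acaa2 overlap.

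The later steps did not move as a block. Hadhb (1367694_at) encodes the thiolase subunit of the mitochondrial trifunctional protein, and Hadha the subunit with hydratase and hydroxyacyl dehydrogenase activity. Hadhb fell from 1868, 1794 and 1887 to 1405, 1497 and 1521, a log2 change of -0.33 (SE 0.07, adjusted p = 0.00445), which did not pass without the intensity trend (0.0978). Hadha overlapped between the groups, at 810.4, 696 and 736 in controls and 825, 745 and 716 in R271W cells. Its log2 change was 0.03, with an interval of -0.16 to 0.21 (adjusted p = 0.867). A dim Hadha probe set, with means of 17.5 and 26.4, read 0.59 without overlap and did not pass (adjusted p = 0.313). The within-array ratio of Hadhb to Hadha signal was 2.31, 2.58 and 2.56 in controls and 1.70, 2.01 and 2.13 in R271W cells, so the R271W arrays were all lower than the controls. The 2 genes share the divergent promoter region printed above. This pair was also picked after its values were seen, and the difference was not tested.

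Acat1 (1367763_at), the mitochondrial acetoacetyl-CoA thiolase of ketone body and isoleucine breakdown, rose from 536, 558 and 518 to 740.4, 780 and 855. All 3 R271W arrays were above the controls, and the log2 change was 0.56 (SE 0.08, adjusted p = 0.000488). A dimmer Acat1 probe set, with means of 50.8 and 54.2, read 0.08 and overlapped, and the mean over both did not pass (adjusted p = 0.0613). Decr1, the dienoyl-CoA reductase, and Eci1, an enoyl-CoA isomerase, both serve unsaturated fatty acids. Decr1 rose from 211, 226 and 194 to 256, 293 and 321 (log2 0.46, SE 0.11, adjusted p = 0.0143). Eci1 rose from 160.4, 112 and 145 to 196, 179.5 and 216 (log2 0.51, SE 0.14, adjusted p = 0.0277). Neither gene overlapped between the groups, but both calls ended under median centring (each with adjusted p = 0.158). Eci1 had the least stable call among the members and also did not pass under quantile normalization (0.0515), 75th percentile centring (0.0621) or as the mean over its probe sets (0.575), the dimmer of which read 0.01. The calls also ended without single arrays, for Eci1 on leaving out control 2 (adjusted p = 0.115), control 3 (0.0528), R271W 1 (0.0645) or R271W 3 (0.0828). For Decr1 they ended on leaving out control 3 (0.0626), R271W 2 (0.0517) or R271W 3 (0.0505).

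The remaining enzymes of the cycle did not pass. Echs1, the short-chain hydratase, had a log2 change of -0.24 with groups that did not overlap (adjusted p = 0.197), and it passed under median centring at -0.44 (0.0198). Hadh, the short-chain hydroxyacyl dehydrogenase, read 0.25 (adjusted p = 0.129), also without overlap. Acaa2, a ketothiolase, read 0.05 with an interval of -0.15 to 0.24. Of the 12 genes of the cycle, 5 rose (41.7%, against 9.87% of all genes) and 1 fell (8.33%, against 8.98%). Under median centring 3 rose and 2 fell, in a scaling where 4.35% of all genes rose and 20.4% fell. The electron transfer flavoprotein had 0 of 3 genes past the limma threshold, and 1 of them at an unadjusted p under 0.05. For that unadjusted p the share of all genes was not counted. Etfa and its dehydrogenase Etfdh read -0.07 and -0.01. Etfb read 81.2, 100.2 and 67.8 in controls and 104, 137 and 118 in R271W cells (log2 0.54, adjusted p = 0.0541). Its adjusted p fell below the threshold under 6 of the 20 alternatives, with a lowest value of 0.0307.

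The carnitine shuttle moves acyl groups across membranes, and its list here also holds Mlycd, a gene of malonyl-CoA removal. Of the 8 listed genes 4 rose and 0 fell, with a median log2 change of 0.36. Over all genes the shares were 9.87% higher and 8.98% lower. With no intensity trend in the model, 1 of the 8 rose, against 3.57% of all genes. Crot (1368426_at), the peroxisomal carnitine octanoyltransferase, rose from 50.5, 74.5 and 76.0 to 142, 151 and 137. The groups were widely separated, at a fold of 2.17 (log2 1.12, SE 0.18, adjusted p = 0.000792). A dimmer Crot probe set, with means of 30.7 and 52.2, read 0.80 without passing (adjusted p = 0.0852) and without overlap. Cpt2 (1386927_at), the carnitine palmitoyltransferase of the inner membrane, rose from 75.7, 60.3 and 71.8 to 98.2, 103 and 128 (log2 0.66, SE 0.17, adjusted p = 0.0179). Slc25a20 (1398249_at), the carnitine-acylcarnitine translocase, rose from 197, 275 and 257 to 338, 328 and 341 (log2 0.48, SE 0.12, adjusted p = 0.0156).

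Cpt1a (1386946_at), the malonyl-CoA-sensitive enzyme that controls entry, rose from 834, 924 and 869 to 1019, 1033 and 1205. This was the smallest of the 12 rises at 0.31 on the log2 scale (SE 0.08, adjusted p = 0.0227), and another Cpt1a probe set read 0.23 (adjusted p = 0.121) without overlap. Under median centring the rises of Cpt1a, Cpt2 and Slc25a20 did not pass (adjusted p = 0.466, 0.0815 and 0.141), which left Crot alone in the group. Cpt1a also did not pass under 75th percentile centring (0.122) or on leaving out control 1 (0.0921), control 3 (0.0717) or R271W 3 (0.0587). For Cpt2 the call ended without control replicate 2 (0.0696) or R271W replicate 3 (0.0705), and for Slc25a20 without control replicate 1 (0.0616).

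The other genes of this list did not pass. Crat, the carnitine acetyltransferase, read 0.11 with an interval of -0.40 to 0.62. The muscle and brain forms Cpt1b and Cpt1c were dim, with control means of 35.2 and 37.4, and read 0.06 and 0.23. Their wide intervals, -0.54 to 0.67 and -0.36 to 0.82, leave changes of moderate size undetectable with these arrays. Mlycd, the decarboxylase that removes malonyl-CoA, read 110.0, 136 and 98.8 in controls and 155, 162 and 139 in R271W cells. Its groups did not overlap, at a log2 change of 0.41 and an adjusted p of 0.0744.

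In the peroxisome group, which leaves out Crot of the carnitine shuttle, 1 of 4 tested genes rose and 0 fell. Over all genes 9.87% rose and 8.98% fell. Eci2 (1388908_at), the peroxisomal enoyl-CoA isomerase, rose from 279, 238 and 229 to 422, 424 and 491. The groups did not overlap, and the fold was 1.80 (log2 0.84, SE 0.11, adjusted p = 0.000157). Hsd17b4, the D-bifunctional protein, read 0.22 without overlap (adjusted p = 0.172). Decr2, the peroxisomal dienoyl-CoA reductase, read 0.41 (adjusted p = 0.27). Ehhadh, the L-bifunctional protein, was close to the filter and read 0.16 with an interval from -1.13 to 1.45. Acox3, a branched-chain acyl-CoA oxidase, had signals between 1.14 and 9.94 and was not tested.

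Uptake and activation of fatty acids went in both directions. Slc27a1 (1367789_at), the fatty acid transport protein FATP1, rose from 126, 134 and 172 to 289, 246 and 242, a fold of 1.81 (log2 0.86, SE 0.14, adjusted p = 0.000827). Cd36, the fatty acid translocase, was listed between 0.182 and 8.09 on the 6 arrays and was not tested. Acsl5 (1386926_at), an acyl-CoA synthetase of mitochondria and the endoplasmic reticulum, fell from 466, 399.5 and 449 to 266, 280.0 and 295. The log2 change was -0.64 (SE 0.10, adjusted p = 0.000533), and a second Acsl5 probe set read -0.33 (adjusted p = 0.0949) without overlap.

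Of the 4 tested acyl-CoA synthetases 1 fell and 0 rose, with a median log2 change of -0.41. Over all genes 8.98% fell and 9.87% rose. Acsl1, the main synthetase of liver and fat, read -0.17 on its brightest probe set (adjusted p = 0.208). Its next probe set fell from a mean of 634 to 460, a log2 change of -0.46 (adjusted p = 0.00319), so the 2 sets differed in call. The mean over the tested sets passed (adjusted p = 0.00984), as did the brightest set under median centring at -0.37 (0.0139). Acsl3, a synthetase of lipid droplets, read 217, 291 and 266 in controls and 349, 389.7 and 289 in R271W cells, with 1 array overlapping (log2 0.41, adjusted p = 0.0518). It passed under 9 of the 20 alternatives. Acsl6, a brain form, read -0.65 with an interval of -1.32 to 0.02. Acsl4 was listed below 1 in all 3 controls and at 12.0, 8.85 and 6.94 in R271W cells, and its mean signal over the 6 arrays, 2.05, was under the filter. Without the filter it passed (adjusted p = 0.023).

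The thioesterases, which release free fatty acids from acyl-CoA, moved in opposite directions. Acot2 (1391433_at), the mitochondrial form, rose from 67.6, 74.4 and 50.2 to 135, 107 and 131 (fold 1.95, log2 0.97, SE 0.18, adjusted p = 0.00284). Its other probe sets read 1.64 and 1.21 and did not pass (adjusted p = 0.0573 and 0.364). Acot7 (1370313_at), the cytosolic brain form, fell from 567, 449 and 571 to 364, 333 and 457 (log2 -0.46, SE 0.12, adjusted p = 0.022). R271W replicate 3 overlapped control replicate 2 in Acot7, which made it the called member whose groups overlapped. Its call ended on leaving out control 1 (adjusted p = 0.088), control 3 (0.0927), R271W 1 (0.0694) or R271W 2 (0.097). Its dimmer probe set read -0.11, and the mean over both did not pass (0.338).

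**Figure D3:**
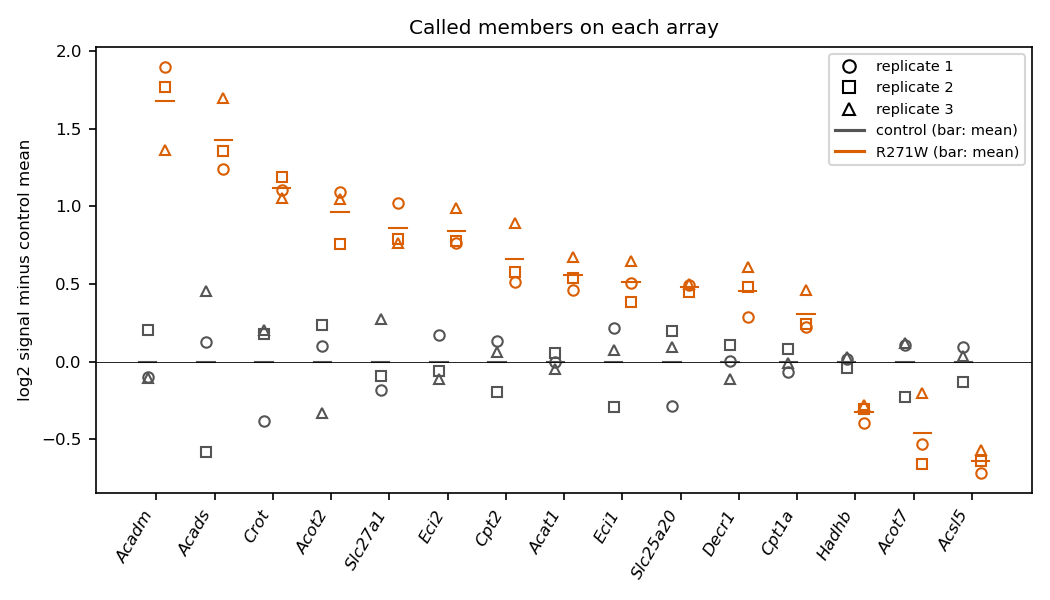
Log2 signal of each array minus the control mean for the 15 members past the threshold, with markers for replicates and bars for group means. The 12 genes that rose lie above 0 on all 3 R271W arrays, and Acot7 is the gene whose groups overlap.

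**Figure D4:**
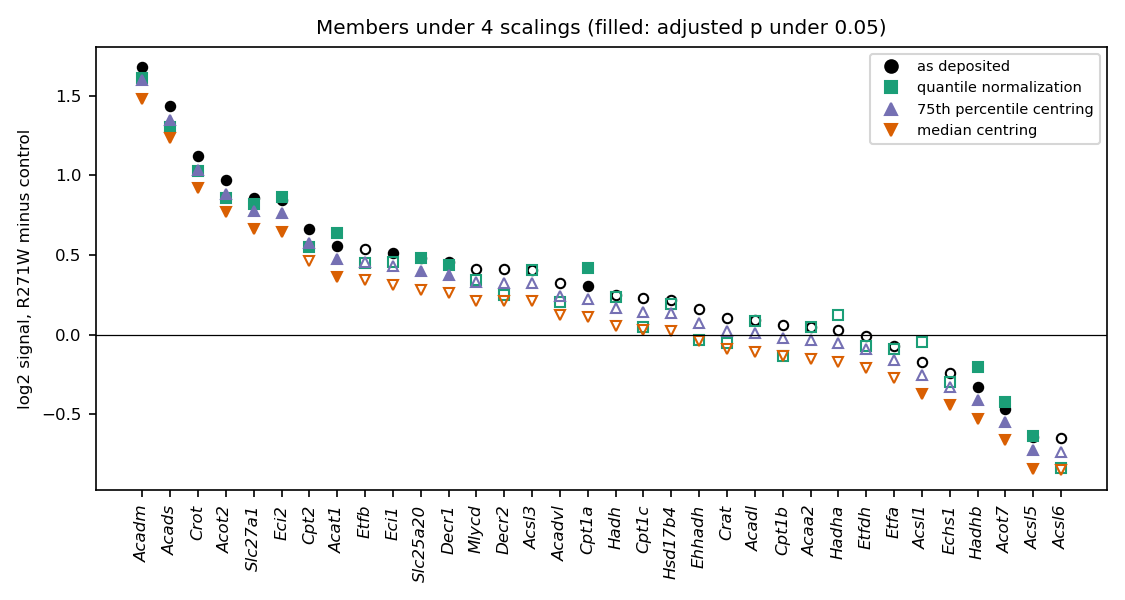
Log2 signal in R271W minus control cells for the 34 tested members under 4 scalings of the arrays, with filled markers for an adjusted p under 0.05. Median centring lowers every value by about the same amount and leaves 7 filled markers above 0 and 5 below it.

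Further enzymes and carriers of fatty acid oxidation, outside the 38 genes, were read from a separate list. Of its 30 tested genes 5 rose and 0 fell, a share of 16.7% higher against 9.87% of all genes, and of 0 lower against 8.98%. The median log2 change was 0.21, against 0.06 over all genes. Slc25a17, a peroxisomal carrier of coenzyme A and related cofactors, rose from 336 ± 18.1 (SD, n = 3) to 462 ± 6.94 (log2 0.46, adjusted p = 0.00266). Scp2, the peroxisomal sterol carrier protein and thiolase gene, rose by 0.33, Acot9, a mitochondrial thioesterase gene, by 0.42 and Abcd3, a peroxisomal acyl-CoA transporter gene, by 0.47 on the log2 scale. The remaining one, Abcd2, another transporter of the same family named here after its value was seen, rose by 0.52. Under median centring none of the 5 passed (adjusted p = 0.0607, 0.357, 0.222, 0.165 and 0.17 in this order). In that scaling 3 other genes of the list fell, while 20.4% of all genes did. The list had 0 rises without the intensity trend, 1 under 75th percentile centring and 3 under quantile normalization. Over all genes 3.57%, 6.81% and 9.19% rose in these settings. On leaving out single arrays, Scp2 was lost with control 1 (0.0703) or R271W 2 (0.0698) out, and Acot9 with control 3 (0.108), R271W 2 (0.0713) or R271W 3 (0.0616) out. Abcd3 was lost with control 1 (0.057), control 2 (0.0904), control 3 (0.0716) or R271W 1 (0.116) out, and Abcd2 with control 2 (0.127), R271W 1 (0.0606) or R271W 3 (0.102) out.

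Among 18 tested regulators of the pathway 2 rose (11.1%, against 9.87% of all genes) and 4 fell (22.2%, against 8.98%). Foxo1, a forkhead factor of the fasting response, fell from 217 ± 20.5 to 113 ± 5.02 (log2 -0.94, SE 0.12, adjusted p = 0.000195), though the mean over its probe sets did not pass (0.062). Lpin1, a phosphatidate phosphatase that also acts as a nuclear coactivator, fell by 0.49 and Pprc1, a coactivator of the PGC-1 family, by 0.57 on the log2 scale. Prkab1, a subunit of the AMP-activated kinase, rose by 0.59. Named after their values were seen, Prkag1, another subunit of that kinase, rose by 0.58, and Nrf1, a factor for nuclear genes of mitochondria, fell by 0.69. Under median centring Prkab1 and Prkag1 did not pass (adjusted p = 0.0502 and 0.0768) and 7 regulators fell, under a scaling in which 20.4% of all genes did. Pprc1 did not pass without control replicate 2 (0.0534), Nrf1 without control replicate 1 (0.0753) or as the mean over its probe sets (0.0528), and Prkag1 without R271W replicate 2 (0.0568). Ppara, which encodes the fatty acid sensor PPAR-alpha, and Ppargc1a lay below the filter and were not tested.

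Ketone body and acetate genes had 2 of 5 tested members that rose (40.0%, against 9.87% of all genes) and 0 that fell (against 8.98%). Under median centring 2 rose and 1 fell, against 4.35% and 20.4% of all genes. Oxct1, the mitochondrial enzyme that activates ketone bodies for burning, rose from 112 ± 7.28 to 227 ± 47.2 (log2 1.00, SE 0.15, adjusted p = 0.000565) and passed under every alternative run. Acss2, an acetyl-CoA synthetase, rose from 155 ± 6.84 to 231 ± 14.0 (log2 0.58, adjusted p = 0.00305). Among 7 tested PPAR target genes outside the oxidation enzymes 2 rose (28.6%, against 9.87% of all genes) and 0 fell (against 8.98%). Their median log2 change was -0.15, against 0.06 over all genes, and 3 of the 7 changes were positive. Fgf21, a fasting hormone, rose by 0.48, and Txnip, a thioredoxin inhibitor, by 0.43 on the log2 scale. Plin2 and Gk read -0.23 and -0.70 without overlap and did not pass (limma adjusted p = 0.164 and 0.176). The other tested genes overlapped between the groups, with Cyp4a3 at 0.60, Ucp2 at -0.15 and Ucp3 at -0.44. Pdk4, Angptl4, Vnn1 and Creb3l3 lay below the filter and overlapped. Cyp4a1 and Aqp7 also lay below it, but without overlap and higher with R271W, from means of 3.24 to 14.7 and 4.29 to 16.9. Under median centring neither Fgf21 nor Txnip passed (adjusted p = 0.0689 and 0.265) and 2 other genes fell, while 20.4% of all genes did. Txnip also did not pass without any 1 of 5 arrays, with adjusted p values from 0.0762 to 0.168.

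Genes of lipid droplets and triglyceride breakdown had 0 of 9 tested members that rose and 2 that fell (22.2%). Over all genes 9.87% rose and 8.98% fell. Hilpda, a lipid droplet protein that inhibits lipolysis, fell from 254 ± 19.1 to 172 ± 3.89 (log2 -0.56, adjusted p = 0.00296). Plin3, a droplet coat protein, fell by 0.39 on the log2 scale (adjusted p = 0.0352), a call that ended without any 1 of 5 arrays (0.0631 to 0.136). The route for odd-chain fatty acids through propionyl-CoA had 0 of 5 genes past the threshold, with Mmut at 0.40 (adjusted p = 0.0597) and Pccb at 0.15 (0.346). Of 15 tested genes of peroxisome biogenesis 0 passed, and the smallest p values belonged to Pex13 at 0.34 (adjusted p = 0.0698) and Pex11g at 0.41 (0.0864). At an unadjusted p under 0.05 limma counted 1 of the odd-chain genes and 3 of the biogenesis genes. The share of all genes at that unadjusted p was not counted, so these counts show no excess.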

How the data were processed

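The authors deposited intensity values, 1 MAS5 signal per probe set and array, per the submitters' processing notes. No version or detection call of MAS5 was used here. All arrays shared a mean of 100.0 after trimming 2% at each end, which ties dim signals to the bright ones. Symbols came from a platform annotation table and a RefSeq gene table (GRCr8), and 20826 of 31042 non-control probe sets had 1 symbol.

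Signals were taken to log2 and modelled by group in R 4.3.3 with the package limma 3.58.1, using lmFit followed by eBayes with an intensity trend and two-sided tests. Benjamini-Hochberg adjustment ran over 18625 probe sets at or above the 40th percentile of mean log2 signal (a signal of 11.2), with a threshold of 0.05. Genes were read from their brightest probe set. The script was tested on simulated data. The members and lists were chosen with earlier results of these data known, and no set test was made. Named were all members and, of each other list, up to 4 genes past the threshold by smallest p, or otherwise 2. Further genes of the enzyme and carrier, regulator and PPAR target lists were named outside this rule.

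Alternatives were quantile normalization, median and 75th percentile centring, other filters, a floor or offset at the 20th percentile of signals (3.72), array weights, eBayes run robustly or with no trend, the replicate number as a block, gene-level tables, a fold of at least 1.5 and leaving out each array. Figures used matplotlib 3.10.9.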

Additional observations from a re-analysis of the deposited data

How the results depend on the processing

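Over 20 alternatives none of the 15 called members changed sign, and 7 of 15 passed under all of them. Among the 19 tested members that were not called, 7 changed sign under some alternative and 5 passed under some. Under median centring 7 members rose, 5 fell and their median log2 change was 0.081, while over all genes 441 rose and 2071 fell against 1001 and 911. Without the intensity trend 7 members rose and 1 fell, and over all genes 362 and 285. A fold of at least 1.5, which by construction removes small changes, left 7 and 1. The median was 0.22 under quantile normalization, 0.20 under 75th percentile centring and 0.37 with the filter at the 60th percentile, which tests fewer genes. For median centring and the trend the cause was not tested. Without single arrays 9 to 13 members rose, 2 to 3 fell and the median ran from 0.26 to 0.32. Shares over all genes were not counted for the fold threshold or without single arrays.

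With the replicate number as a block 14 members rose and 3 fell, against 8.36% and 7.61% of all genes. Their median log2 change was 0.28. Deviations of same-numbered arrays from their group means correlated at -0.0017, 0.010 and -0.020, and not every array correlated best with its own number. Deviations from means of 3 arrays cannot show whether same-numbered cultures shared a batch, and the labels do not say. Signal over background limits the dim members, such as Ehhadh, Cpt1b and Cpt1c.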
